A study of Homo sapiens with 12 samples.

Results

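Expression of 44 mitotic genes was examined in the human colorectal cancer line Colo320DM to ask whether reduced TET1 or exposure to 5-aza-2'-deoxycytidine (5-aza-dC) shifted the mitotic programme. The genes were taken by name, from a list drawn up with earlier results of these data known, and every array probe whose gene symbol equalled a listed name was used, which gave 54 of the 50599 distinct probes. All 44 genes were on the array, among 36337 distinct gene names, 35 of them by 1 probe and 9 by more than 1. For genes with several probes the probe with the highest mean over all arrays (the brightest probe) is described, and the other probes are given where they differed in sign or call from it.

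RNA came from 6 clones, each profiled on 1 one-colour Agilent array after mock treatment and on 1 after 72 h with 1 µM 5-aza-dC, so the 12 arrays formed 4 groups of 3. Control clones 1, 2 and 3 carried a plasmid with a negative-control microRNA (pcDNA6.2-GW/EmGFP-miR-neg), and TET1-knockdown clones 1, 2 and 3 carried a vector that expresses an artificial microRNA against TET1, an enzyme that oxidises 5-methylcytosine. All clones were stable, drug-selected derivatives of the same cell line, so a group difference compares 3 clones with 3 other clones, and the labels do not say which of the study's knockdown vectors each clone received. 5-aza-dC is a cytidine analogue that is built into DNA during replication and traps DNA methyltransferases. Values are log2 processed signals relative to the 75th percentile of the array, and a difference of 1 on this scale is a doubling of signal.

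Mitotic genes encode the machinery that condenses, aligns and separates the chromosomes. Their transcripts are low in G1, rise in S phase and peak in G2 and M phase, when the DREAM complex has left their promoters and MYB-MuvB and FOXM1 activate them, so in a bulk sample their level follows the share of cycling cells as well as the activity per cell. In these arrays fewer cells in G2 and M phase and less of a transcript per cell cannot be told apart.

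DREAM and MuvB bind the cell cycle homology region (CHR), and NF-Y binds the CCAAT box, and both are known elements of such promoters. Promoter windows from 250 bases before to 50 bases after each gene's start, from RefSeq on GRCh38.p14, matched 38 of the 44 genes (AURKA, TTK, UBE2C, BIRC5, TPX2 and FOXM1 did not match). The letters TTTGAA of the CHR occurred on either strand in 29 of 38 genes (76.3%), against 18.2% of the 27305 genes in the same table. CCAAT occurred on either strand in 31 of 38 (81.6%), against 39.7% of all genes. Both occurred in 23 of 38 (60.5%, against 7.26%), and neither in KIF2C and CENPE. A gene with several windows was counted once if any window held the letters. It counted for both only if a single window held both, so PLK4, with CHR and CCAAT letters in different windows, was not among the 23. These matches are descriptions of sequence, not evidence of binding.

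The 120 bases before the start are printed for the 3 genes called lower after 5-aza-dC (CENPE, KIF11 and MKI67) and for the 3 with the largest knockdown differences in mock-treated clones (BUB1, HMMR and KIF18A). They read 5′ to 3′ along the gene, and capitals mark the CHR and CCAAT letters on either strand. The marked letters touch or share bases in HMMR and MKI67.
CENPE (chr4:103198344-103198463, minus strand): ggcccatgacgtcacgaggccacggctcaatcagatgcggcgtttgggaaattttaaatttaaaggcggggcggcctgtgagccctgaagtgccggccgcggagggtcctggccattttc
KIF11 (chr10:92593010-92593129, plus strand): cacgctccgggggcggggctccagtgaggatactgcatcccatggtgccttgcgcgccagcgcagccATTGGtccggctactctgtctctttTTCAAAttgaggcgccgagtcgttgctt
MKI67 (chr10:128126424-128126543, minus strand): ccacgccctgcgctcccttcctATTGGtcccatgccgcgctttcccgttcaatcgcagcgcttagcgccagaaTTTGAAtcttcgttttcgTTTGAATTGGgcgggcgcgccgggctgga
BUB1 (chr2:110678064-110678183, minus strand): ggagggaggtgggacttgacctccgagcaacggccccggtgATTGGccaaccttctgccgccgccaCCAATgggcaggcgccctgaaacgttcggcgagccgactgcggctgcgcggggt
HMMR (chr5:163460512-163460631, plus strand): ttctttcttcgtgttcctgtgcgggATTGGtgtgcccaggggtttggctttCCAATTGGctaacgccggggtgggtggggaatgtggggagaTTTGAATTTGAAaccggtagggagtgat
KIF18A (chr11:28108157-28108276, minus strand): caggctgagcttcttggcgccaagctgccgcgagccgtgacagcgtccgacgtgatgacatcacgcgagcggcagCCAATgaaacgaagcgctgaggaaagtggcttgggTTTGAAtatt
CENPE held neither the letters TTTGAA nor CCAAT in its whole window, and BUB1 held CCAAT but no TTTGAA. KIF11, MKI67, HMMR and KIF18A held both. Only these exact letters were searched, so a CHR or CCAAT box written otherwise would have been missed.

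All 54 probes were well above background on all 12 arrays, so no member was lost to the filter on dim probes. Among markers of colorectal epithelium, KRT8, KRT18, KRT20, CDX1 and CDX2 were well above background on 12 arrays and EPCAM on 10, whereas VIL1 was so on 1 and CDH1 on 0. Of the other cell type markers, PTPRC and COL1A1 were also above background on all 12 arrays, and PECAM1, COL1A2 and NCAM1 on 0. The part of other cells in the results was not tested. TET1 itself was lower in every mock knockdown clone: its brightest probe had log2 signals of 3.59, 3.51 and 3.57 in mock knockdown clones, all under the 4.56, 4.23 and 4.67 of mock control clones, a difference of -0.93 that limma did not call (adjusted p = 0.276). After 5-aza-dC the library labelled knockdown clone 2 read 4.31 at this probe, inside the 4.06 to 4.42 of control clones, although it lay under each of them at the 2 other TET1 probes. Medians or calls for the treated comparison, the knockdown response, the mean 5-aza-dC effect and the interaction are therefore also given without knockdown clone 2. So are the treated differences of BUB1, KIF18A, NUF2, KIF4A, FOXM1, AURKA, CDK1, PLK1 and CENPE. Other counts, such as those of groups without overlap, and role medians are given only with it. In fits that also held mock arrays, both arrays of the clone were left out.

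The arrays came from 2 slides, and the groups were split unequally between them. The 7 arrays of slide 1 were mock control clones 1 and 2, every mock knockdown clone, and knockdown clones 1 and 3 after 5-aza-dC, and slide 2 carried the other 5 (mock control clone 3, all treated control clones and treated knockdown clone 2). With the 4 groups fitted, limma called 11 of the 44 mitotic genes lower on slide 2 (background 16.0% of 27200 probes) and 2 higher (background 15.7%) at an adjusted p under 0.05. The median slide difference of the mitotic genes was -0.33, against 0.01 over all probes, and 30 of 44 were negative. The lower genes were the kinetochore subunit NUF2, the kinases AURKA, NEK2, PLK4 and TTK, the cytokinesis factor ECT2, CDK1, MAD2L1, CDC20, DLGAP5 and KIF18A, and the higher ones were ESPL1 (separase) and KIF4A. This term rests on control clone 3 and knockdown clone 2, the only arrays of their groups on slide 2, so slide and clone cannot be told apart in it.

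NUF2, which links kinetochores to microtubules, showed the separation most clearly. Its 7 arrays on slide 1 ranged from 2.70 to 3.29 and its 5 arrays on slide 2 from 1.33 to 1.63, whatever the clone type or treatment, a slide difference of -1.50 (SE 0.17). AURKA, the centrosomal Aurora kinase, read 3.30 to 4.06 on slide 1 and 2.07 to 2.96 on slide 2 (difference -1.24, SE 0.26). Every slide 2 array lay under every slide 1 array for 17 of the 44 genes (background 14.9%) and over every slide 1 array for 1, KIF4A (background 11.2%). Values with slide as a block are given beside the pooled values for this reason. In mock-treated clones such a block leaves the difference within slide 1, and in treated clones it leaves the difference within slide 2, where knockdown clone 2 stands alone against 3 control clones.

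**Figure D1:**
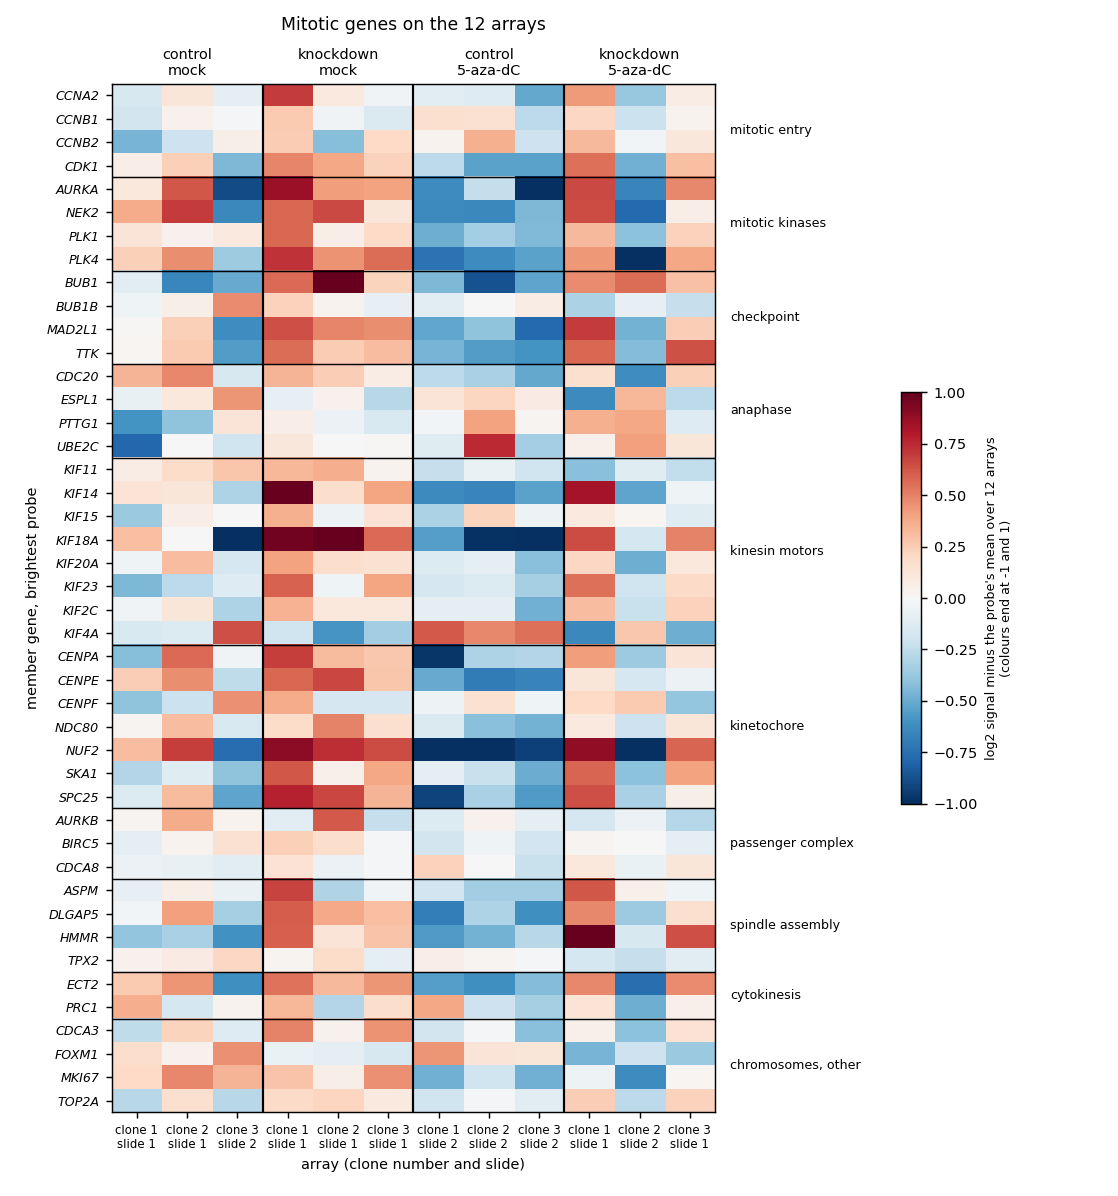
Log2 signal of the 44 mitotic genes (rows, grouped by role) on the 12 arrays (columns, with clone and slide), as the difference from each probe's mean over all arrays; red is above and blue below that mean, and colours end at -1 and 1. The treated control clones and the slide 2 arrays of the other groups are blue for genes such as NUF2, AURKA and PLK4, while BUB1 is red in all 6 knockdown arrays.

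The comparison of mock-treated knockdown and control clones asked whether reduced TET1 alone changed these transcripts. No member was called at an adjusted p under 0.05: limma called 0 of 44 (background 0.137% of 24752 probes), and the methods' t-test with the same adjustment also gave 0. At an unadjusted p under 0.05 limma counted 7 of 44, all higher (background 11.2%). The differences were positive for 36 genes and negative for 8, with a median of 0.28 against 0.04 over all probes tested. Within slide 1 the median was 0.21 and again 0 were called (background 0.113%). The 95% interval of the difference lay inside -1 to 1 for 28 of the 44 genes, so a change of 2-fold was not excluded for the others.

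BUB1, HMMR and KIF18A had the largest differences. BUB1 is a kinase of the spindle assembly checkpoint, and its signal was 2.71, 2.16 and 2.31 in control clones and 3.38, 3.81 and 3.04 in knockdown clones. The knockdown clones all lay above the control clones, with a log2 difference of 1.02 (SE 0.27; 95% interval 0.37 to 1.67; limma adjusted p = 0.361) and 0.98 within slide 1. HMMR, a microtubule-binding protein of the spindle, read 2.60, 2.67 and 2.39 in control and 3.59, 3.12 and 3.28 in knockdown clones. These groups did not overlap either, and the difference of 0.78 (SE 0.20; limma adjusted p = 0.361) was 0.70 within slide 1. KIF18A, a kinesin that dampens chromosome movement at metaphase, read 0.69, 0.38 and -0.64 in control and 1.35, 1.50 and 0.96 in knockdown clones. The lowest of these 6 arrays, control clone 3, was also the only one on slide 2, and the difference was 1.12 (SE 0.38; limma adjusted p = 0.398) over all arrays and 0.73 within slide 1.

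**Figure D2:**
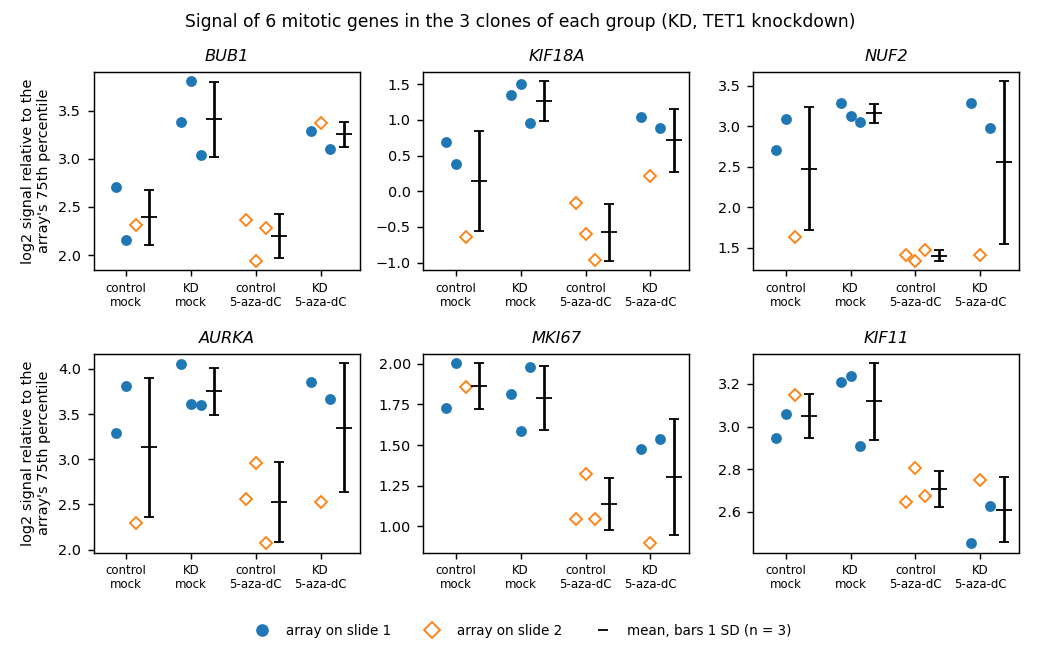
Log2 signal relative to the array's 75th percentile for 6 mitotic genes in the 3 clones of each group; circles are arrays on slide 1, open diamonds arrays on slide 2, and the bar is the mean with 1 SD (n = 3). BUB1 separates knockdown from control clones on both slides, NUF2 and AURKA follow the slide, and MKI67 and KIF11 are lower after 5-aza-dC in both clone types.

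The knockdown clones lay above every control clone for 9 members (background 12.2%): BUB1, HMMR, KIF14, KIF18A, KIF23, MAD2L1, SKA1, SPC25 and UBE2C. They lay below for 2, FOXM1 and KIF4A (background 9.11%). By role, all 4 genes of mitotic entry (median 0.26), all 4 mitotic kinases (0.39) and all 7 centromere and kinetochore genes (0.39) had positive differences, although none was called. Within slide 1 the kinases had a median of 0.20, with NEK2 negative at -0.08, and the kinetochore genes a median of 0.32, all 7 positive. The checkpoint genes had a median of 0.56 with 3 of 4 positive and BUB1B at -0.10, against 0.32 and BUB1B at 0.05 within slide 1. Kinesins were positive in 7 of 8 (median 0.25), and KIF4A, a chromokinesin of the anaphase midzone, was the exception at -0.50. Its second probe gave -0.15. The chromosomal passenger genes AURKB, BIRC5 and CDCA8 had differences of -0.05, 0.10 and 0.10.

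None of the core mitotic regulators was called. CCNB1, which encodes cyclin B1, read 4.41, 4.64 and 4.58 in control and 4.86, 4.56 and 4.45 in knockdown clones. The groups overlapped, with a difference of 0.08 (95% interval -0.39 to 0.54) and -0.06 at the second probe. For its partner CDK1 the difference was 0.42 (0.10 at the second probe) and for PLK1, a kinase of mitotic entry and spindle assembly, 0.19. AURKA gave 0.62, which was 0.20 within slide 1, and CENPE gave 0.36, which was 0.15. FOXM1, the transcription factor of this programme, read 3.73, 3.59 and 4.01 in control and 3.49, 3.46 and 3.39 in knockdown clones. This was lower in every knockdown clone, but the difference of -0.33 (SE 0.19; limma adjusted p = 0.529) was -0.21 within slide 1. The proliferation marker MKI67 and the topoisomerase TOP2A had differences of -0.07 and 0.30. ESPL1 gave -0.26. NEK2 gave 0.31 at its brightest probe and -0.08 at the other.

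**Figure D3:**
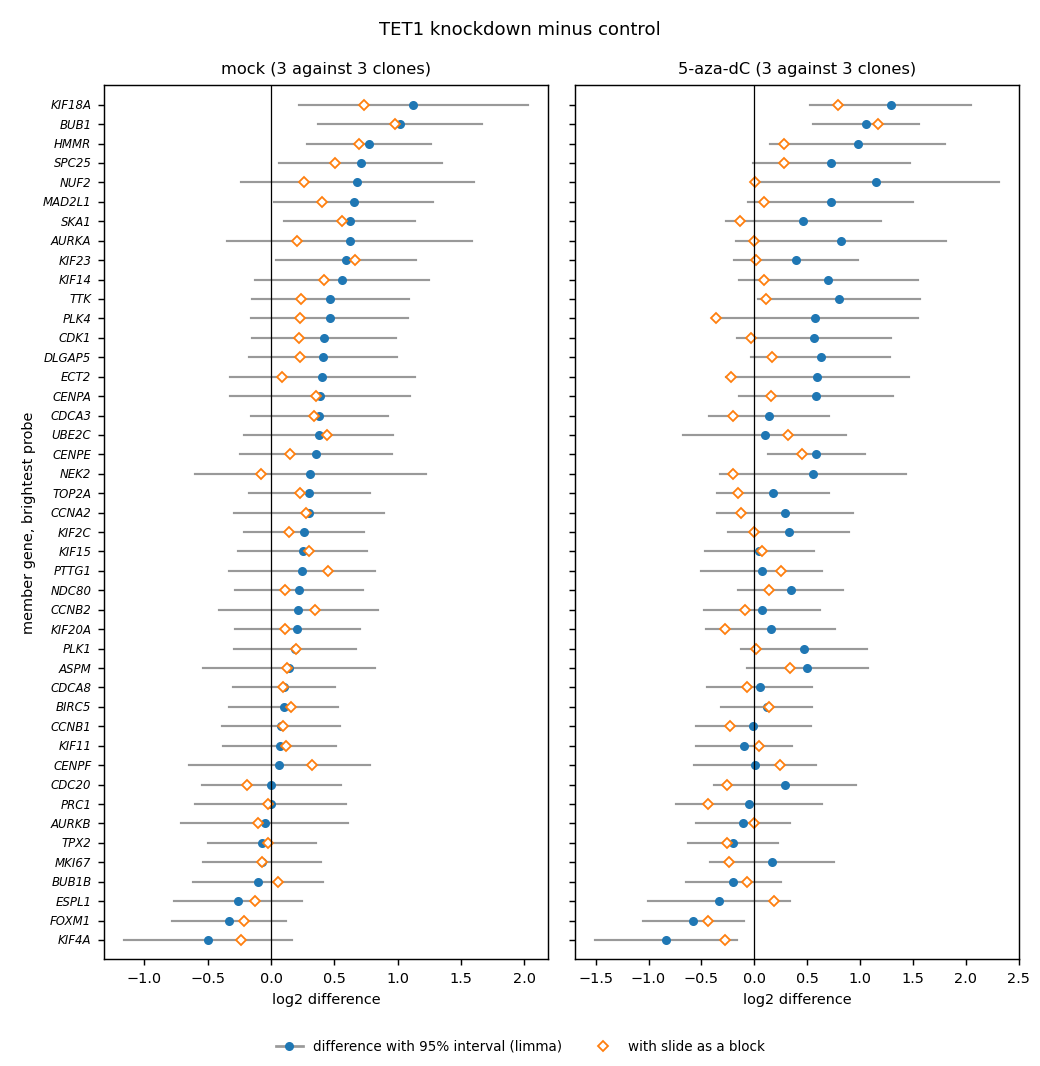
Log2 difference of TET1 knockdown minus control clones for each of the 44 mitotic genes, mock-treated (left) and after 5-aza-dC (right), with the 95% interval from limma (3 against 3 clones); open diamonds are the differences with slide as a block. In mock-treated clones 36 of 44 points lie above 0, and after 5-aza-dC the blocked values centre on 0.00 while BUB1 and KIF18A stay at 1.17 and 0.79.

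After 5-aza-dC, knockdown and control clones were compared in the same way. Limma again called 0 of 44 (background 0.0960% of 24997 probes), as did the methods' t-test, with 7 at an unadjusted p under 0.05 (background 19.3%). The median difference was 0.31, against -0.01 over all probes, with 35 genes positive. With slide as a block the median was 0.00 with 23 positive, and 0 were called (background 0.228%). Without the library labelled knockdown clone 2, limma called 20 of the 44, 18 higher and 2 lower, with a median of 0.49, and it then called 31.4% of all probes. The remaining knockdown clones lay on slide 1 and all control clones on slide 2. Clone type and slide cannot be told apart in that setting.

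BUB1 read 2.36, 1.94 and 2.28 in treated control clones and 3.28, 3.37 and 3.11 in treated knockdown clones. The groups stood well apart, by 1.06 (SE 0.21; 95% interval 0.56 to 1.56; limma adjusted p = 0.14), on slide 2, where only knockdown clone 2 stands for the knockdown, by 1.17, and without that library by 1.00. KIF18A read -0.16, -0.60 and -0.97 in control and 1.04, 0.22 and 0.89 in knockdown clones, a difference of 1.29 (SE 0.32; limma adjusted p = 0.173) that was 0.79 on slide 2 and 1.54 without knockdown clone 2. NUF2 read 1.40, 1.33 and 1.47 against 3.28, 1.40 and 2.98. Here knockdown clone 2, on the slide of the control clones, lay among them, and the pooled difference of 1.16 became 0.00 with slide as a block and 1.73 without knockdown clone 2. These 3 genes were called by limma without that library, at adjusted p of 0.0175, 0.0128 and 0.00426. With all clones, the adjusted p of BUB1 was the smallest of the 44 genes in this comparison.

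Groups did not overlap for 8 members that were higher in treated knockdown clones (background 11.7%), namely ASPM, BUB1, CENPE, HMMR, KIF14, KIF18A, SPC25 and TTK, and for 3 that were lower (background 13.3%), namely FOXM1, KIF4A and TPX2. KIF4A gave -0.83 (SE 0.28; limma adjusted p = 0.222), which was -0.28 on slide 2 and -1.11 without knockdown clone 2, and its second probe gave -0.14. FOXM1 gave -0.58 (SE 0.20; limma adjusted p = 0.226), or -0.43 on slide 2 and -0.65 without knockdown clone 2. Both were called without that library (limma adjusted p of 0.0078 and 0.0419). The 2 comparisons of clone type use different arrays of the same 6 clones, so values that recur in both, as for BUB1, are not independent clones. By role, all 4 mitotic kinases and all 7 centromere and kinetochore genes again had positive pooled differences, with medians of 0.57 and 0.59, and the entry genes had a median of 0.18. With slide as a block the medians were -0.10 for the kinases, with NEK2 at -0.20 and PLK4 at -0.36, 0.16 for the kinetochore genes, with SKA1 at -0.14, and -0.11 for the entry genes, none of which was then positive. MKI67 gave 0.17 at its brightest probe and -0.59 at 1 of the others, and NEK2 gave 0.56 and -0.05.

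Among the other regulators several pooled differences went to about 0 on slide 2. AURKA went from 0.82 to 0.00, CDK1 from 0.57 to -0.03 and PLK1 from 0.47 to 0.02, whereas CENPE went from 0.59 to 0.45. The slide 2 values rest on knockdown clone 2 as the only knockdown array. Without that library the differences of AURKA, CDK1, PLK1 and CENPE were 1.23, 0.87, 0.70 and 0.65. CCNB1 gave -0.01 pooled and -0.23 on slide 2, AURKB -0.11 and -0.0017, and BUB1B -0.20 and -0.07. TOP2A turned from 0.18 to -0.15 and ESPL1 from -0.33 to 0.19. With all clones none of these was called. Without knockdown clone 2 limma called AURKA, CDK1, PLK1 and CENPE (adjusted p of 0.0272, 0.0202, 0.0228 and 0.0326). It did not call CCNB1, AURKB, BUB1B, TOP2A or ESPL1. Clone type and slide cannot be told apart in that setting.

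The effect of 5-aza-dC was then examined separately in control and knockdown clones. Limma called 0 of 44 in control clones at the brightest probes (background 5.22% of 24641 probes tested) and 7 at an unadjusted p under 0.05 (background 26.5%), and the methods' t-test called 1 lower. The median difference was -0.20, against -0.02 over all probes, with 32 genes negative. All treated control clones but only 1 mock control clone lay on slide 2, and with slide as a block the median was -0.09, with 0 called (background 2.09%). Treated clones lay below every mock clone for 9 members (background 18.8%): ASPM, CDC20, CENPE, KIF11, KIF14, MKI67, NUF2, PLK1 and PLK4. For 0 members did they lie above (background 13.6%). Without control clone 3, whose arrays both lay on slide 2, limma called 8 members, 1 higher and 7 lower, with 22.8% of all probes called. The mock arrays left then lay on slide 1 and the treated arrays on slide 2. 5-aza-dC and slide cannot be told apart in that setting. The most negative values, none called, were NUF2 (-1.08), CENPE (-0.77) and PLK4 (-0.75), and the largest positive differences were UBE2C, KIF4A and PTTG1, each at 0.43. The slide block leaves the difference within slide 2, where control clone 3 is the only mock array. On that basis NUF2 was at -0.23, CENPE at -0.37, PLK4 at -0.28, UBE2C at 0.30, KIF4A at -0.10 and PTTG1 at 0.01, with MKI67 at -0.72 and PLK1 at -0.52. Second probes differed in sign from the brightest for KIF4A (0.43 and -0.11), CENPF (0.07 and -0.49) and KIF23 (0.06 and -0.22).

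In knockdown clones limma called 0 of 44 (background 2.04% of 25389 probes), as did the methods' t-test, with 2 at an unadjusted p under 0.05 (background 9.15%). The median was -0.24 against -0.09 over all probes, with 36 genes negative, and it was -0.09 with slide as a block, with 0 called (background 1.86%). Without the mock and treated arrays of knockdown clone 2 the median was -0.10, again with 0 called. CENPE, FOXM1, KIF11, MKI67, NDC80, PLK4 and TPX2 did not overlap and were lower after treatment (background 11.7%), and 0 members were higher without overlap (background 7.46%). The most negative values were PLK4 (-0.64), NUF2 (-0.60) and KIF18A (-0.56), which were -0.16, -0.03 and -0.31 with slide as a block and -0.23, -0.04 and -0.19 without knockdown clone 2. The most positive were PTTG1 (0.25), HMMR (0.20) and UBE2C (0.15), and none was called. Probes differed in sign for ASPM (0.09 and -0.29), CENPF (0.01 and -0.30), KIF4A (0.09 and -0.10) and CCNB1 (-0.02 and 0.02).

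Averaged over both clone types, with all 12 arrays in the fit, limma called 3 of 44 lower after 5-aza-dC (background 5.95% of 27292 probes) and 0 higher (background 7.29%), and 11 of 44 had an unadjusted p under 0.05 (background 32.1%). The genes that fell were CENPE, MKI67 and KIF11. The median of the 44 was -0.23 against -0.05 over all probes, and 36 of 44 were negative. With slide as a block only KIF11 was called (background 3.72%), and the median was -0.09. Leaving out control clone 1, control clone 2 or knockdown clone 1 left 0 called, leaving out knockdown clone 2 or 3 left 1, and leaving out control clone 3 left 2. The shares of all probes called in these fits are not given, so the counts cannot be set against a background. With the array median in place of the 75th percentile as the scale, which moved the median of all probes from -0.05 to -0.29, limma called 17 members lower, with 25.1% of all probes called lower.

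KIF11, the motor that pushes the spindle poles apart, read 2.95, 3.06 and 3.15 in mock control clones and 2.65, 2.80 and 2.68 after treatment. In knockdown clones it read 3.21, 3.24 and 2.91 before and 2.45, 2.75 and 2.63 after treatment. All 6 treated arrays lay under all 6 mock arrays, and KIF11 fell by 0.43 on the log2 scale (SE 0.12; limma adjusted p = 0.0375), or by 0.52 with slide as a block (limma adjusted p = 0.0264). With both clone and slide as blocks it was -0.48 and no longer called (limma adjusted p = 0.104), and its call was lost in 8 of 15 alternatives. Mean signal after treatment was 74.5% of that before.

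MKI67, the gene of the Ki-67 antigen, read 1.73, 2.01 and 1.86 in mock and 1.04, 1.32 and 1.04 in treated control clones. In knockdown clones it read 1.81, 1.59 and 1.98 in mock and 1.48, 0.89 and 1.54 in treated arrays. Every treated array again lay under every mock array, and MKI67 fell by 0.61 (SE 0.15; limma adjusted p = 0.0248), or by 0.45 with slide as a block (limma adjusted p = 0.106, no longer called). Its call was lost in 8 of 15 alternatives. A second MKI67 probe was called lower at -0.89 (limma adjusted p = 0.0029), and in control clones alone at -0.98 (limma adjusted p = 0.0398), whereas the third gave -0.38 and was not called.

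CENPE, a kinetochore kinesin that brings chromosomes to the metaphase plate, read 2.81, 3.03 and 2.31 in mock and 2.06, 1.87 and 1.90 in treated control clones. In knockdown clones it read 3.14, 3.23 and 2.84 in mock and 2.69, 2.40 and 2.51 in treated arrays. Each clone was lower after treatment than before, and CENPE fell by 0.66 (SE 0.15; limma adjusted p = 0.0178), or by 0.45 with slide as a block (limma adjusted p = 0.0738, no longer called). All 3 called genes were therefore also lower with slide in the fit, 1 of them past the threshold, and the call of CENPE was lost in 6 of 15 alternatives.

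Clone by clone, 15 of 44 members were lower after treatment in all 6 clones (background 17.0%) and 0 were higher in all 6 (background 12.7%). The 15 were AURKB, BIRC5, BUB1B, CENPA, CENPE, DLGAP5, KIF11, KIF14, KIF18A, KIF20A, MKI67, NDC80, NUF2, PLK4 and SPC25. The median response was -0.14, -0.25 and -0.23 in control clones 1, 2 and 3 and -0.15, -0.48 and -0.05 in knockdown clones 1, 2 and 3. Control clone 3 and knockdown clones 1 and 3 had both of their arrays on the same slide. Members lower in all 3 of these clones numbered 24 (background 34.3%), and 2, HMMR and TOP2A, were higher in all 3 (background 19.9%). The median of the mean response over these clones was -0.15, against -0.08 over all probes.

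NUF2 and PLK4 differed between clones whose arrays lay on 2 slides and the others. NUF2 responses were -1.30, -1.76 and -1.73 in control clones 1 and 2 and knockdown clone 2, but -0.16, -0.01 and -0.07 in the 3 clones measured on the same slide. PLK4, the kinase of centriole duplication, had responses of -0.97, -1.09 and -1.45 against -0.18, -0.28 and -0.17 in the same order. In MKI67 the 3 same-slide responses were -0.82, -0.34 and -0.44 and in KIF11 -0.47, -0.76 and -0.28, which overlapped those of the other clones. In the clones that changed slide, each mock array lay on slide 1 and each treated array on slide 2. Treatment and slide therefore cannot be told apart in their responses. Slide and clone cannot be told apart in the contrast with the same-slide clones.

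**Figure D4:**
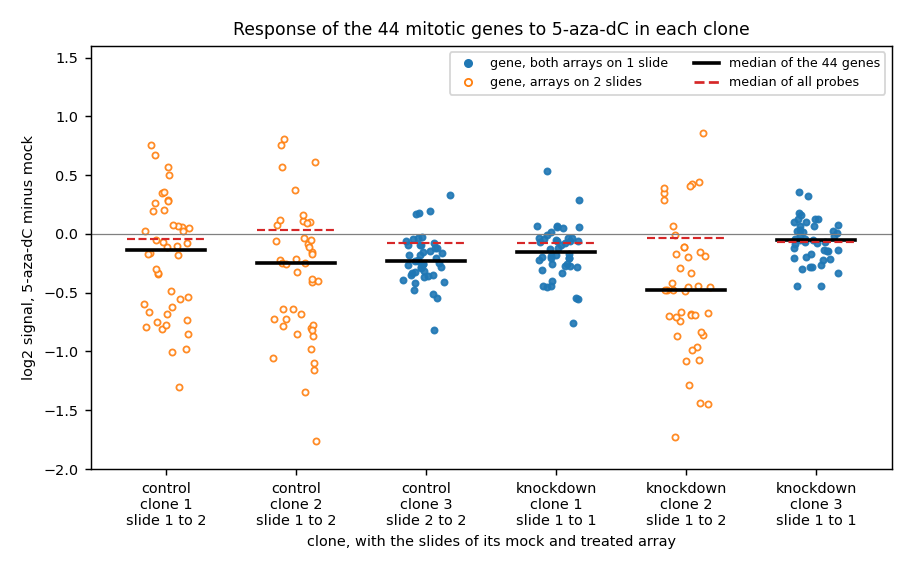
Response of each of the 44 mitotic genes to 5-aza-dC (log2 signal of the treated minus the mock array of the same clone) in the 6 clones; filled points are clones with both arrays on 1 slide, open points clones whose arrays lay on 2 slides, the black line is the median of the 44 genes and the dashed line that of all probes. The open clones spread more widely, and the lowest median, -0.48, is that of knockdown clone 2.

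By role, the mean response was negative for all 4 mitotic kinases (median -0.55), all 4 checkpoint genes (-0.25), 6 of 7 centromere and kinetochore genes (-0.46) and 7 of 8 kinesins (-0.19). With slide as a block these medians were -0.09, -0.09, -0.18 and -0.12. The anaphase genes were divided: CDC20, the activator of the anaphase-promoting complex, gave -0.44 and separase ESPL1 -0.05, whereas securin PTTG1 gave 0.34 and the ubiquitin-conjugating enzyme UBE2C 0.29. None of these was called. CCNB1 gave 0.02 and CCNB2 0.20, with CCNA2 at -0.21 and CDK1 at -0.32. Other regulators that were not called were PLK1 (-0.37), AURKA (-0.50), AURKB (-0.23), BUB1B (-0.22), TOP2A (-0.04) and FOXM1 (-0.12). Probes disagreed for CENPF, at 0.04 and -0.39, and for KIF4A, at 0.26 and -0.11, with none of these called.

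The difference in response between clone types, knockdown minus control, was tested as an interaction. Limma called 0 of 44 (background 0.0366% of 27287 probes), with 0 at an unadjusted p under 0.05 (background 2.47%), and 0 with slide as a block (background 0.0513%). The median interaction was 0.02, or 0.16 without the mock and treated arrays of knockdown clone 2 and -0.10 with slide as a block. For NUF2, which had the largest value, it was 0.47 with a 95% interval from -1.01 to 1.96, or -0.02 with slide as a block. ASPM (0.36), TTK (0.33) and KIF4A (-0.34, and 0.01 at the second probe) had the next largest values. Probes also differed in sign for CDK1 (0.15 and -0.02), CENPF (-0.06 and 0.19) and MKI67 (0.24, with -0.23 at 1 of the others). For KIF11 it was -0.17 with an interval from -0.68 to 0.35. These intervals do not show that the clone types responded alike.

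A longer list of other mitotic genes was measured beside these, of which 103 of 109 were on the array. Between mock-treated clone types limma called 1 of 101 tested lower (0.99%, against 0.105% of all probes), and the list's median was 0.05. The gene was DEPDC1, at -3.35 (limma adjusted p = 0.0137, and 0.0894 with slide as a block). Between treated clone types limma called 0, with 23 (22.8%, against 19.3% of all probes) at an unadjusted p under 0.05 and a median of 0.08. With the mean 5-aza-dC effect, 2 of 102 were higher (1.96%, against 7.29% of all probes) and 8 lower (7.84%, against 5.95%), with a median of -0.15. The genes that rose were AURKC, the Aurora kinase of germ cells (3.42, adjusted p = 1.22e-05), and CCNB3, a cyclin of meiotic cells (1.70, adjusted p = 0.000189). The 3 largest falls were KIF18B (-1.04), CENPI (-0.75) and SASS6 (-0.56), which were called at adjusted p of 0.0474, 0.0212 and 0.032. With slide as a block they were -0.61, -0.46 and -0.35 and none of the 3 was called (adjusted p of 0.258, 0.0864 and 0.128). Among 24 G1 cyclins, E2F and RB genes and CDK inhibitors, of which 21 were tested, 0 were called between clone types. With the mean 5-aza-dC effect 1 of 21 was called higher (4.76%, against 7.29% of all probes) and 0 lower. This gene was CDKN2D, a CDK4 and CDK6 inhibitor (1.11, limma adjusted p = 0.00415).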

How the data were processed

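RNA of 6 Colo320DM clones was hybridised to 12 one-colour arrays, 1 mock and 1 treated per clone. Spot intensity was deposited as scanner text output, produced by the authors in Agilent Feature Extraction 10.7.3.1 (background subtracted, no normalization between arrays). The authors' later GeneSpring output was not used; their t-test with Benjamini-Hochberg correction was run here only as an alternative. The authors' value matrix repeats these intensities to within 0.497%.

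Control and outlier spots were removed, spots of a probe were averaged as log2 values, and the array's 75th percentile was subtracted. Probes well above background in 50% of their spots on at least 3 arrays of a fit were tested with limma 3.58.1 (lmFit, eBayes, two-sided; R 4.3.3), adjusted by Benjamini-Hochberg over all probes tested, threshold 0.05. The 2-group comparisons used 6 arrays, and the mean effect, interaction and slide term all 12. Probe positions are on hg19 and the promoter windows on GRCh38.p14. The code was tested on simulated data. Nothing says that mock and treated arrays were repeated cultures, so p-values measure the spread between the arrays of a group, which are different clones. Fits with mock and treated arrays took both arrays of a clone as independent unless clone was a block. Their p-values therefore do not measure the spread of the response between clones. The 3 clones per group limit the precision.

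The members and gene lists were chosen with earlier results of these data known. Named genes are TET1, a panel (CCNB1, CDK1, PLK1, AURKA, AURKB, BUB1B, CENPE, TOP2A, FOXM1, MKI67), every called member, the 3 largest differences in each direction, members whose probes disagree, and the 3 largest called genes of other lists. Genes named for their slide difference, their groups' lack of overlap or their role, and the comparison over clones measured on the same slide, were chosen after their values were seen. The clone number was taken as the same clone in mock and treated arrays, where deviations from the group mean correlated at 0.21 to 0.32 in control and 0.43 to 0.52 in knockdown clones. Alternatives were other scalings, background corrections and filters, the authors' value matrix, slide and clone blocks, the t-test, all probes of a gene, all 12 arrays and leaving out each clone.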

Additional observations from a re-analysis of the deposited data

How the results depend on the processing

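Between mock-treated clone types 0 members were called under all 17 alternatives, and their median ranged from 0.21 to 0.37. Between treated clone types the median was 0.0023 with slide as a block and -0.076 with clone number and slide as blocks, and leaving out 1 clone called 0 to 20 members. For 5-aza-dC in control clones, 1 member was called with normexp and quantile normalization, 1 by the methods' t-test, 4 with the array median as scale (median -0.42) and 0 to 8 with 1 clone left out (median -0.30 to -0.19). The shares of all probes called by normexp, the t-test and the array median there are not given. Whether these counts exceed them is therefore not shown. The median there was -0.090 with slide as a block. In knockdown clones the array median as scale gave a median of -0.50. For the mean effect, the array median called 17 (median -0.47), no filter on dim probes 1, slide as a block 1, and leaving out 1 clone 0 to 2. For the mean effect, the shares of all probes called without the filter or with 1 clone left out are not given. The cause was not tested, except that leaving out a clone removes 2 of 12 arrays. No interaction was called under any of 15 alternatives.

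Treated and mock arrays of a clone were paired by the replicate block. With the clone as a block 0 members were called in control clones, 0 in knockdown clones, 4 for the mean effect (0 with slide as well) and 0 for the interaction. The share of all probes called with this block is not given, so the 4 cannot be set against a background. Between clone types, where the numbers pair nothing, the block by clone number called 0 in mock and 0 in treated clones.

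Arrays per group, 3, and their uneven spread over slides limit all of these results. The signals of all members stood above background.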
